A study of Mus musculus with 8 samples.

Results

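The nuclear genes for subunits of the mitochondrial respiratory chain were followed in whole BM of 8 mice with low or absent Gfi1. Members were the protein-coding genes whose GENCODE symbols mark them as subunits of complexes I to V (Nduf, Sdh, Uqcr, Cyc1, Cox or Atp5 names), that lie outside the mitochondrial genome and that had at least 20 counts summed over the 8 mice. Of 41214 genes counted, 77 met this rule. They comprised 36 genes of complex I, 4 of complex II, 9 of complex III, 13 of complex IV and 15 of complex V, as their symbols place them. A further 4 genes with such symbols were under the minimum, namely Ndufa4l2 with 7 counts in all, Cox8b with 1, and Cox7b2 and Cox8c with 0. The rule leaves out some true subunits by their spelling, such as Ndufab1 and Cox4i1, which are given with the other pathway genes.

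The respiratory chain sits in the inner mitochondrial membrane. Complexes I and II take electrons from NADH and succinate, complex III passes them from ubiquinol to cytochrome c, and complex IV hands them to oxygen. Complex V, the ATP synthase, uses the proton gradient so formed to make ATP. Complexes I, III, IV and V hold subunits from both genomes, whereas all subunits of complex II, which is also an enzyme of the citric acid cycle, are encoded in the nucleus. In BM, dividing progenitors and maturing erythroid cells rely on the chain, whereas mature neutrophils are known for few mitochondria and for glycolysis.

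The mice fell into 4 groups of 2. Young KD mice (39 and 42 days) and sick KD mice (187 and 78 days) carried the Gfi1 knockdown allele, a human GFI1 cDNA in the Gfi1 locus whose expression is lowered by a neo cassette in antisense. Young KO mice (48 and 44 days) and old KO mice (158 and 101 days) lacked Gfi1. All 8 mice were on the C57BL/6 background, none was treated, and no wild-type mouse is among them. The sick KD mice are described as having a myeloproliferative neoplasm in the study and acute myeloid leukemia in the sample labels. Sickness, genotype and age thus cannot be told apart in a comparison of old KO with sick KD, nor sickness and age in a comparison of sick with young KD. Mouse Gfi1 had more counts in KO than in KD libraries, and the human cDNA had no row of its own. The targeted gene therefore cannot check the labels, and each direction between genotypes rests on them.

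Each library held between 26642067 and 42679114 counts on genes, and the members took between 0.879% and 0.977% of them. The smallest sum of counts was 94 for Cox7a1 and the largest 322967 for Atp5b. In the sick KD libraries 42.0% and 38.8% of uniquely aligned reads lay outside annotated genes, against 26.9% to 33.8% in the other libraries, and 1.42% and 1.16% of counts on genes came from the mitochondrial genome, against 0.464% to 0.787%. Levels below are CPM, counts scaled to library size with TMM factors over all 8 mice, and differences are log2 fold changes from edgeR fits on the mice compared. Alignments set aside as not unique also stood out in sick KD. There were 45056950 and 56501078 of them in sick KD mice 1 and 2, beside 26642067 and 30139409 counts on genes. In the other libraries they ran from 29299324 beside 27515379 counts (old KO mouse 1) to 47000865 beside 42679114 (young KO mouse 1). The effect of this on the members' counts was not tested. Some members share sequence with other genes, which affects how many of their reads are counted. Of their longest transcripts, 12 had over 20% of their 50-base words in another annotated gene. They include Ndufb4 with 37.0%, shared with Ndufb4c, Gm16056 and Gm20519, whose count is therefore uncertain. Exons of 3 members, Ndufa13, Ndufb6 and Atp5o, lay for over 20% of their length under a gene of the opposite strand, and the strand setting of the counting is not given in the sources used here.

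Promoters are shown first for the 7 members called both in old KO against sick KD and in sick KD against young KD, which include Sdha and Sdhb with opposite directions in one complex. Ndufc1, called in sick KD against young KD and in the interaction, and Sdhd, another gene of complex II that passed no test, are added. The lines give RefSeq promoters on GRCm38.p6, from 250 bases before to 50 bases after the start, 5′ to 3′ in the direction of the gene. Capitals mark matches on either strand to 4 short motifs, which were GCGCATGC for NRF1, CCGGAAG for ETS factors such as GABP, AAGATGGC for YY1 and AAGGTCA for ERR. The last letters of CCGGAAG can overlap the first of AAGATGGC or AAGGTCA.
Sdha (lower in sick KD, chr13:74350191-74350490, minus strand): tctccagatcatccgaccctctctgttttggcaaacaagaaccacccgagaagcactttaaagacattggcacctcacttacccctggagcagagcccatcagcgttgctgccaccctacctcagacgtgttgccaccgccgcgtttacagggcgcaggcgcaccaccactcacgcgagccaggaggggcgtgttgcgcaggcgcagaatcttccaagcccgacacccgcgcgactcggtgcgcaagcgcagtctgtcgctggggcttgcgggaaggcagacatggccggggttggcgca
Sdhb (higher in sick KD, chr4:140961021-140961320, plus strand): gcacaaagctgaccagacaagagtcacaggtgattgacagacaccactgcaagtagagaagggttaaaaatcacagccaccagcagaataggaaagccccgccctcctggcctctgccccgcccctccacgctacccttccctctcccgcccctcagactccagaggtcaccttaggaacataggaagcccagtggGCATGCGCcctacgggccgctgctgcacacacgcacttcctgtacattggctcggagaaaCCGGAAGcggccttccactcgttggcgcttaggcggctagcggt
Sdhd (not past the test, chr9:50603800-50604099, minus strand): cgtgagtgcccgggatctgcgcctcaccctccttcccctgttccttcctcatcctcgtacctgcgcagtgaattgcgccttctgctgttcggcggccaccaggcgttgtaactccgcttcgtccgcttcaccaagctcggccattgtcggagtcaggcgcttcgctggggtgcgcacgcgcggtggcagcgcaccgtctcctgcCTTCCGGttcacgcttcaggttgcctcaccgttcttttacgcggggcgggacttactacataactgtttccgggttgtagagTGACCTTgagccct
Ndufb4 (higher in sick KD, chr16:37654319-37654618, minus strand): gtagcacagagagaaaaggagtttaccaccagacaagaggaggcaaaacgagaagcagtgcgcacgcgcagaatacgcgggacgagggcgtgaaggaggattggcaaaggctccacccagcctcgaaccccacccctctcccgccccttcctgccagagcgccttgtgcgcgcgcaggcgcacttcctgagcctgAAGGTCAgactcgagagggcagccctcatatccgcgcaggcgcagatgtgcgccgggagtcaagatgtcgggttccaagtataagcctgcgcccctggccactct
Ndufc1 (higher in sick KD, chr3:51408906-51409205, minus strand): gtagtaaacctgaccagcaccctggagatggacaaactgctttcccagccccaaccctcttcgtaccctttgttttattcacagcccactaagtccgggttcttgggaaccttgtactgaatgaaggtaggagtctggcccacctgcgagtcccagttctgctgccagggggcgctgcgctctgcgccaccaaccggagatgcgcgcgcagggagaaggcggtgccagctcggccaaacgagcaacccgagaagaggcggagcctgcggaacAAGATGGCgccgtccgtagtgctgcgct
Ndufv2 (higher in sick KD, chr17:66101510-66101809, minus strand): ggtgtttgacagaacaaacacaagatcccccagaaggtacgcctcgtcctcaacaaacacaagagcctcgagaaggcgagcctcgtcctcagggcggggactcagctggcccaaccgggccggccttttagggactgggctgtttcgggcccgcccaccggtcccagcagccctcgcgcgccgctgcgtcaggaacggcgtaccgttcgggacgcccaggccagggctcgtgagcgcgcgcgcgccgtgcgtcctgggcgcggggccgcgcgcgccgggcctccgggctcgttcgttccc
Ndufb11 (higher in sick KD, chrX:20617570-20617869, minus strand): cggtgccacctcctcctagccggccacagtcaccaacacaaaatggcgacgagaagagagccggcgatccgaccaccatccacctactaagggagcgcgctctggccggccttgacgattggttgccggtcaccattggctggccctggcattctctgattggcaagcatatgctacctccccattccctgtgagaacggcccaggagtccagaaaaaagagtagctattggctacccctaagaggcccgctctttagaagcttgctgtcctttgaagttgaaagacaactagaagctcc
Ndufs8 (higher in sick KD, chr19:3912725-3913024, minus strand): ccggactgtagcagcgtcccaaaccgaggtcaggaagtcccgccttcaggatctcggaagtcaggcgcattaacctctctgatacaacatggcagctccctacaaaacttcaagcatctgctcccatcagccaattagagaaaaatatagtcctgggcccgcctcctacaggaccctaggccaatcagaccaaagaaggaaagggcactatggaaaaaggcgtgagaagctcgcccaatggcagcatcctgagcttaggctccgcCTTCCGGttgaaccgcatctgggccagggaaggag
Atp5l (higher in sick KD, chr9:44920693-44920992, minus strand): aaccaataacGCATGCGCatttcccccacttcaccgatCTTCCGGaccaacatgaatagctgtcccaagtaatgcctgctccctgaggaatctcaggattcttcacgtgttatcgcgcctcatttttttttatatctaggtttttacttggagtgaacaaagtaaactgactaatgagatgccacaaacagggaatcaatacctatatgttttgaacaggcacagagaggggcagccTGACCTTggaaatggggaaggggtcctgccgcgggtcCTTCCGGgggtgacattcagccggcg
Sdha, Ndufv2 and Ndufb11 hold none of these letters, Ndufs8 holds an ETS match, Sdhb an NRF1 and an ETS match, Sdhd an ETS and an ERR match, Ndufb4 an ERR match, Ndufc1 a YY1 match close to its end and Atp5l 1 NRF1, 2 ETS and 1 ERR match. Of the 77 members 65 had a promoter in the table. The remaining 12 included Sdhc, Cyc1, Uqcrq, Cox6a2 and Atp5a1. The NRF1 letters stood in 15.4% of member promoters against 3.93% of the 17491 protein-coding genes in the table. The ETS letters stood in 24.6% against 12.9%, the YY1 letters in 15.4% against 3.57% and the ERR letters in 12.3% against 4.73%. At least 1 of the first 3 motifs was found in 46.2% of members and 18.7% of protein-coding genes. Among the 14 members that were higher in sick KD than in young KD, 2 held the NRF1, 3 the ETS, 1 the YY1 and 3 the ERR letters. A match is only a run of letters, and binding was not measured.

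Levels between genes were compared as mean CPM per kb of merged exons over the 8 mice. The median was 43.2 CPM per kb for complex I, 62.7 for complex II, 66.8 for complex III, 73.7 for complex IV and 62.5 for complex V. With the length of the principal transcript in place of merged exons, chosen after seeing the data, the medians were 70.3, 104, 109, 135 and 172 CPM per kb. Complex I had the lowest median with both lengths, while the order of the others depended on the length.

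In complex I, Ndufa1, a small membrane subunit, was highest at 101 CPM per kb and Ndufb2, another membrane-arm subunit, lowest at 8.41. Both places rest on annotated length, with merged exons of 419 bases for Ndufa1 and 5628 for Ndufb2. Without division by length the mean was 42.2 CPM for Ndufa1 and 47.3 CPM for Ndufb2. The principal transcript of Ndufb2 is also long, at 4371 bases. Among the complex II genes Sdhd, a membrane anchor, led with 129 CPM per kb, ahead of Sdhb at 69.7, Sdha at 55.7 and Sdhc at 31.1. In complex III, Uqcr10 reached 121 and Uqcrq 7.40 CPM per kb, although both encode small subunits present once per monomer. Cox8a was highest in complex IV at 261 CPM per kb and Cox7a1 lowest at 0.639. Atp5a1 and Atp5b, the alpha and beta subunits of the catalytic head, were the leading genes of complex V with 327 and 280 CPM per kb, and Atp5l, subunit g, was lowest with 9.53. Several extremes rested on the length chosen, since per kb of the principal transcript Atp5l reached 113 and Ndufb8, Sdhb, Uqcrh and Atp5b led their complexes.

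**Figure D1:**
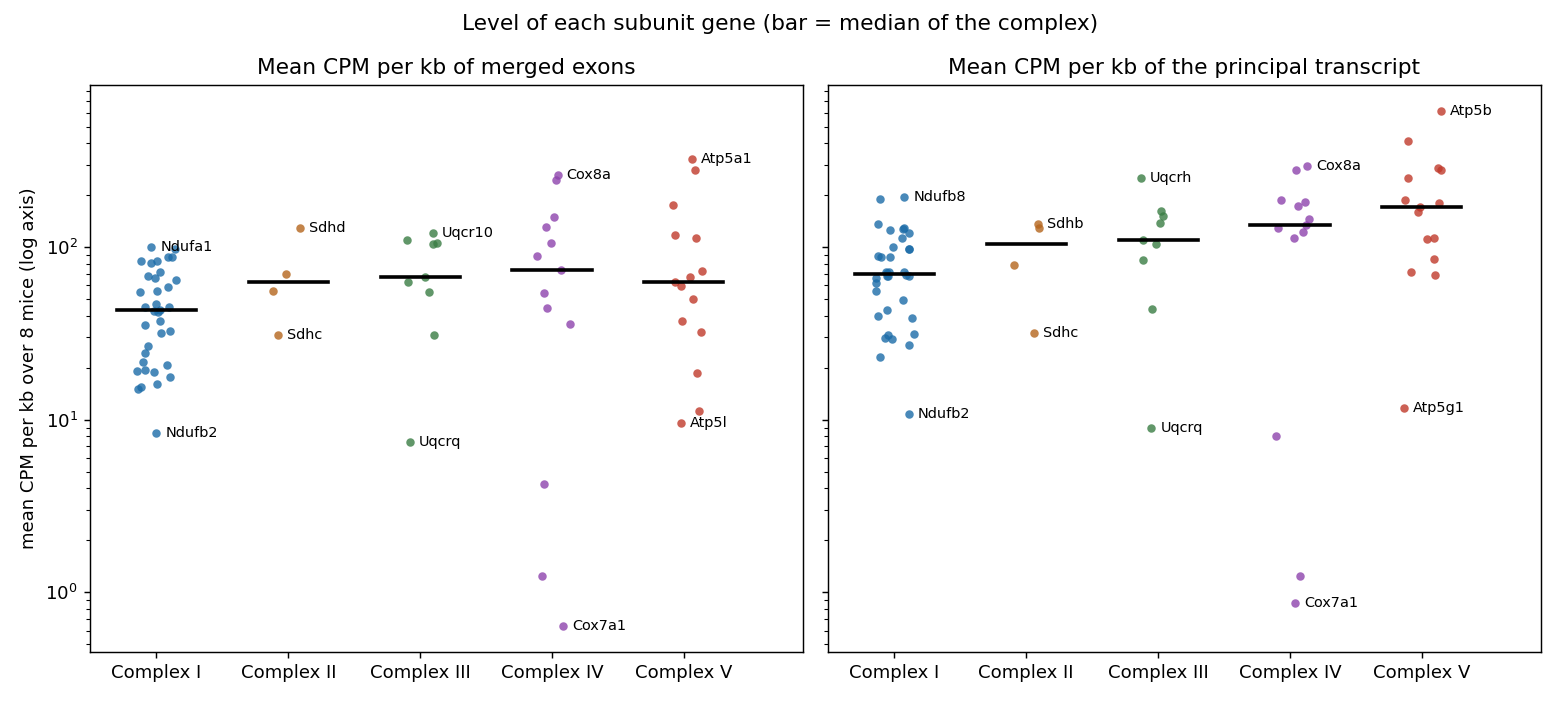
Mean CPM per kb over 8 mice of each subunit gene on a log axis, per kb of merged exons on the left and of the principal transcript on the right, with 1 point per gene and a bar at the median of each complex. Most genes lie within 10 and 300 CPM per kb, and Cox6a2 and Cox7a1 of complex IV lie far below at 1.25 and 0.639 CPM per kb of merged exons.

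Several subunits exist as tissue isoforms encoded by separate genes, and BM used mainly the widespread ones. Of the summed CPM per kb of its pair, Cox6a1, the liver-type isoform, took 99.2%, and Cox6a2, the heart and muscle isoform, 0.831%. Cox6b1 took 98.3% and Cox6b2, known from testis, 1.75%. Cox7a2, the liver-type isoform, took 59.1% of its family and the related gene Cox7a2l 40.6%, whereas the muscle isoform Cox7a1 took 0.287%. Cox8a, Cox7b and Ndufa4 were alone at over 99.9% of their families, with 1 count of Cox8b and 0 of Cox8c and Cox7b2 over all 8 libraries. A count of 0 allows up to 3 counts, by counting error only. Outside the rule, Cox4i1 took 99.8% and the hypoxia-related isoform Cox4i2 0.199%. For the c ring of ATP synthase, whose 3 genes encode the same mature protein, Atp5g3 gave 55.3%, Atp5g2 34.3% and Atp5g1 10.4% of the level per kb. Per kb of the principal transcript the share of Atp5g1 was 4.24%. Both shares of Atp5g1 rest on its annotated length. Its principal transcript has 4715 bases, against 731 for Atp5g2 and 723 for Atp5g3. Without division by length the mean over the 8 mice was 55.4 CPM for Atp5g1 and 62.4 CPM for Atp5g2.

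In each mouse the level of a member was set against its own mean over the 8 mice. The median over the 77 members was 0.11 and 0.21 on the log2 scale in the sick KD mice, -0.15 and 0.04 in the old KO mice, 0.03 and -0.08 in the young KO mice and -0.04 and -0.11 in the young KD mice. Both sick KD mice had the highest medians of the 8. This did not hold for totals, since the summed CPM of the members was 9457 in sick KD mouse 1, below the 9673 of old KO mouse 2 and the 9478 of young KO mouse 1. Before TMM scaling the members' share of counts was lowest in sick KD mouse 1, at 0.879%. Old KO mouse 1 had the lowest median of all, so the old KO mice differed from each other more than the sick KD mice did.

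**Figure D2:**
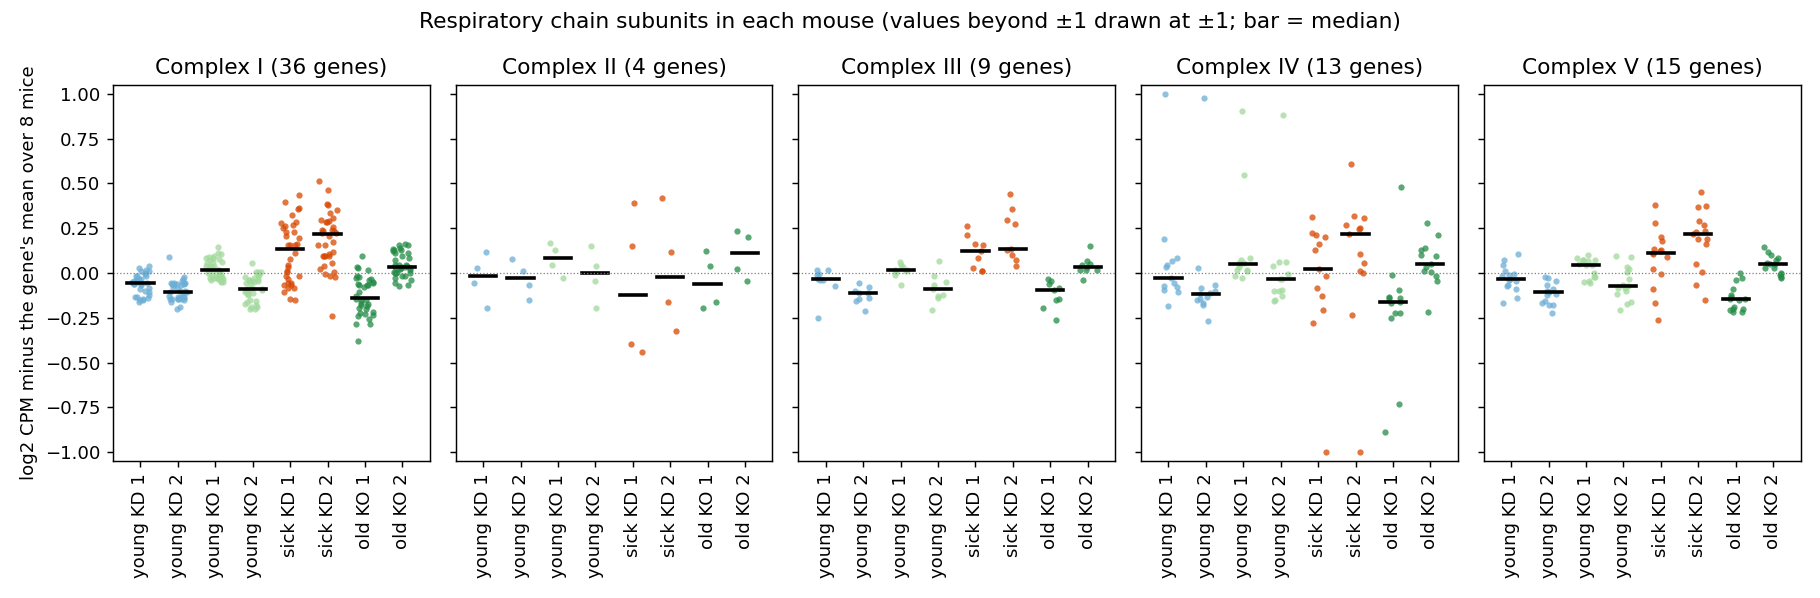
Log2 CPM of each subunit gene minus its mean over 8 mice, by complex (panels) and mouse (horizontal axis), with 1 point per gene and a bar at the median. In complex III all 9 genes are above their mean in both sick KD mice, while in complex II 2 genes lie above and 2 below it.

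Young KO mice were compared with young KD mice to ask whether absence and shortage of Gfi1 differ before disease. No member differed, with 0 of 77 past an adjusted p of 0.05 (edgeR quasi-likelihood test, Benjamini-Hochberg adjustment), 0 at an unadjusted p under 0.05 and 0 with DESeq2. Of all 14839 genes tested, 0.0202% were called higher in KO and 0.0202% lower. Log2 fold changes were small and mostly positive. They were above 0 for 66 of 77 members, with a median of 0.05 against -0.01 for all genes, and without the young KO mouse 1 the median was 0.00. Apart from Cox6a2, Cox6b2 and Cox7a1, which had few counts, they lay between -0.10 for Cox7a2l and 0.17 for Uqcrq, with standard errors of 0.07 to 0.13. The smallest unadjusted p values belonged to Ndufc1 (log2 fold change 0.15) and Cox5b (0.11), and neither passed after adjustment. By complex the medians were 0.04, 0.06, 0.05, 0.07 and 0.06 from I to V.

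Sick KD mice were compared with young KD mice to describe the BM of the same genotype with and without disease. Most subunits of complexes I, III and V had positive log2 fold changes in sick KD, up to 0.55 in these complexes, whereas Sdha, the flavoprotein of complex II, and the rare Cox6a2 were lower. Of 77 members 14 rose and 2 fell (edgeR adjusted p under 0.05). Of all genes 9.45% were called higher and 11.4% lower, and whether the members' split differs from that was not tested. Both directions together made up 20.8% of members and 20.9% of all genes. The members' median log2 fold change was 0.22 against 0.01 for all 14656 genes, and 65 of 77 were above 0. With scaling to library totals in place of TMM the median of all genes moved to -0.13 and that of the members to 0.08, a distance of 0.21 in both cases, and 5 members were higher and 3 lower. With the trends of each library in GC content, length and gene span removed, the median was 0.1878 for the members and 0.0984 for all genes, a distance of only 0.0894. Complex IV then lay below all genes by 0.0824 and complex II by 0.0732. Both young KD mice were needed for most calls, with 1 member called without young KD mouse 1, 1 without young KD mouse 2, 20 without sick KD mouse 1 and 15 without sick KD mouse 2.

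Complex I gave 10 of the 14 higher members. The catalytic core has 7 nuclear subunits, which carry the flavin and iron-sulfur clusters, and 2 of them rose. Ndufv2, of the NADH-binding module, measured 105 and 104 CPM in young KD and 149 and 151 CPM in sick KD. The sick mice were well above the young ones and close to each other (log2 fold change 0.52 ± 0.10 SE, n = 2 per group, edgeR adjusted p = 0.0190). Ndufs8, an iron-sulfur subunit, measured 63.9 and 64.6 CPM in young KD and 85.9 and 97.5 CPM in sick KD (0.51 ± 0.11, edgeR adjusted p = 0.0257). The other core subunits did not pass the test, and Ndufs1, the largest, was lowest with a log2 fold change of -0.17. Among the 29 remaining subunits 8 rose, and log2 fold changes ranged from -0.02 for Ndufa9 to 0.55 for Ndufb4.

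Ndufb4, a membrane-arm subunit, measured 25.6 and 26.0 CPM in young KD against 38.7 and 37.3 CPM in sick KD, again without overlap (0.55 ± 0.11, edgeR adjusted p = 0.0202). Ndufb2, Ndufb5, Ndufb11, Ndufc1, Ndufc2, Ndufv3 and Ndufa7 also rose, by between 0.39 and 0.53 on the log2 scale. Most of them belong to the membrane arm, and Ndufv3 and Ndufa7 to the matrix arm. Ndufb11 lay at 71.4 and 70.7 CPM in young KD and at 93.9 and 112 CPM in sick KD, so the sick mice differed from each other as well.

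In complex II the 4 genes went in different directions. Sdhb, which holds the iron-sulfur clusters, measured 134 and 138 CPM in young KD and 202 and 205 CPM in sick KD (0.57 ± 0.10, edgeR adjusted p = 0.0155). Sdha, the subunit that oxidizes succinate and binds Sdhb, measured 247 and 240 CPM in young KD and 173 and 182 CPM in sick KD (-0.46 ± 0.10, edgeR adjusted p = 0.0283). In CPM, Sdha thus lay above Sdhb in the young KD mice and below it in the sick mice. CPM is not divided by length, and merged exons have 4126 bases for Sdha and 2239 for Sdhb. This order therefore does not rank the levels of these genes, and only the change within each gene is read here. Without young KD mouse 1 the adjusted p of Sdha was 0.248 and that of Sdhb 0.160, and without young KD mouse 2 they were 0.134 and 0.0965. The membrane anchors did not pass the test. Sdhc measured 102 and 101 CPM in young KD and 73.7 and 89.5 CPM in sick KD (-0.32 ± 0.12), and Sdhd 152 and 151 against 176 and 172 CPM (0.19 ± 0.10). The genes lie on 4 chromosomes, Sdha on chromosome 13 (74322254 to 74350280), Sdhb on 4 (140961203 to 140979193), Sdhc on 1 (171127165 to 171150603) and Sdhd on 9 (50596357 to 50603812) of GRCm38.

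**Figure D3:**
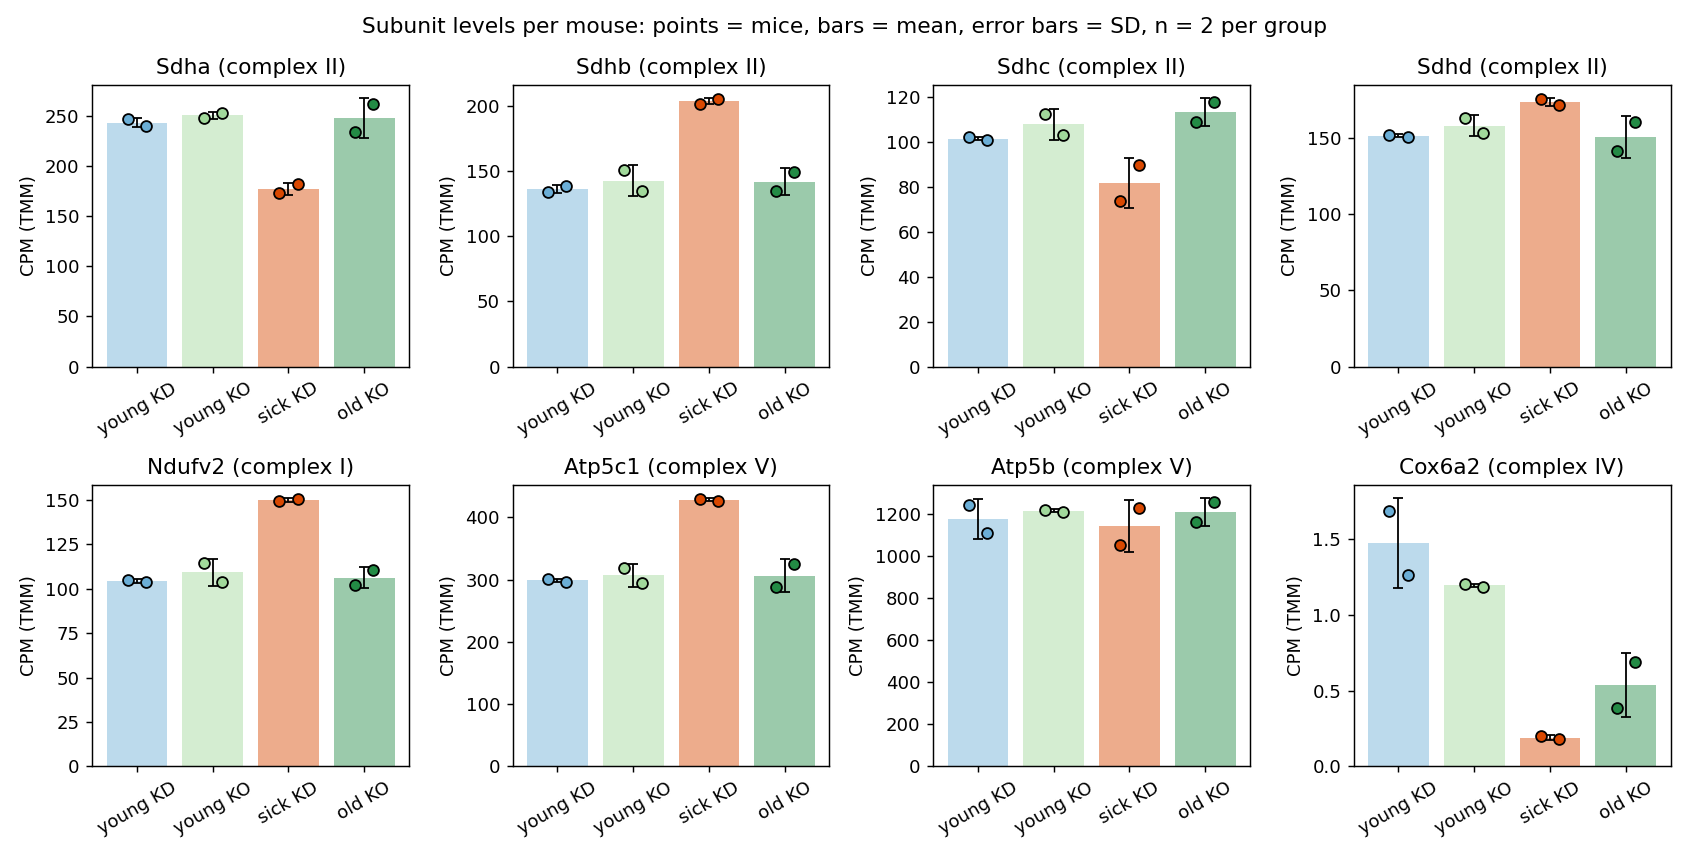
CPM of 8 subunit genes in each mouse, with 1 panel per gene, points for mice, bars for group means and error bars for SD (n = 2 per group). Sdha and Sdhc are lowest and Sdhb, Sdhd, Ndufv2 and Atp5c1 highest in the sick KD mice, and Atp5b shows no such step.

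All 9 complex III genes had log2 fold changes above 0 in sick against young KD, and 0 passed the test. They ranged from 0.05 for Uqcrfs1, the Rieske iron-sulfur protein, to 0.50 for Uqcrq, whose 3639 counts were the fewest of this complex. In complex IV, Cox7a2 rose from 116 and 111 CPM to 153 and 146 CPM (0.39 ± 0.10, edgeR adjusted p = 0.0431). Its adjusted p was 0.0601 without sick KD mouse 1, 0.275 without young KD mouse 1 and 0.338 without young KD mouse 2. Cox6a2 fell from 68 and 42 counts in the young KD mice to 5 and 5 counts in the sick KD mice (-2.95 ± 0.40, edgeR adjusted p = 0.00814). It held with any 1 of the 4 mice left out, with adjusted p of 0.000797 to 0.0264. The 10.3% of its exons that lie under the opposite-strand gene Itgad could add reads of that gene. Cox6b1, Cox6c, Cox5b and Cox7c had log2 fold changes of 0.32 to 0.37 that did not pass.

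In complex V, 2 of 15 genes rose. Atp5c1, the gamma subunit that turns inside the catalytic head, measured 301 and 297 CPM in young KD and 430 and 427 CPM in sick KD (0.51 ± 0.10, edgeR adjusted p = 0.0219). Atp5l, a membrane subunit at the dimer interface, measured 53.9 and 53.6 against 73.5 and 82.7 CPM (0.53 ± 0.11, edgeR adjusted p = 0.0222). The alpha and beta subunits, with which gamma forms the head, did not rise. Atp5a1 measured 1095 and 1002 CPM in young KD and 849 and 918 CPM in sick KD (-0.25 ± 0.12, not past the test), and Atp5b 1243 and 1110 against 1052 and 1227 CPM. The c-ring genes had log2 fold changes between -0.05 for Atp5g3 and 0.27 for Atp5g2.

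Old KO mice were compared with sick KD mice to contrast aged mice without Gfi1 with the diseased KD mice. This comparison shares the sick KD mice with the one above, so the values are not independent of it. Ndufb4, Ndufv2, Ndufb11, Ndufs8, Sdhb and Atp5l were lower and Sdha higher in old KO, by 0.47 to 0.56 on the log2 scale. Of 76 members tested these 7 passed the test (edgeR adjusted p under 0.05), 1 higher and 6 lower. That is 9.21% of members against 18.1% of 14470 genes tested, 9.93% called higher and 8.22% called lower. The median log2 fold change was -0.17 against 0.00 for all genes, and 56 of 76 members were below 0. Scaled to library totals, the median of all genes was 0.11 and that of the members -0.05, and 2 members were higher and 1 lower. With the trends of each library removed, the median was -0.1622 against -0.0702 for all genes, a distance of -0.092 in place of -0.168. The calls depended on single mice. Without old KO mouse 1 there were 0, without old KO mouse 2 1, without sick KD mouse 1 1 and without sick KD mouse 2 4.

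Sdha measured 234 and 262 CPM in old KO against 173 and 182 CPM in sick KD (0.49 ± 0.13, edgeR adjusted p = 0.0432). Sdhb measured 134 and 149 against 202 and 205 CPM (-0.52 ± 0.12, edgeR adjusted p = 0.0312). Sdhc measured 109 and 117 against 73.7 and 89.5 CPM and lay just outside the threshold (0.47 ± 0.13, edgeR adjusted p = 0.0508). For Sdhd the old KO mice had 141 and 161 and the sick KD mice 176 and 172 CPM, with no call. With any 1 mouse left out the adjusted p of Sdha was between 0.0536 and 0.265 and that of Sdhb between 0.0439 and 0.258. The old KO and young KO mice overlapped in each of these 4 genes.

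In complex I, Ndufv2 measured 102 and 111 CPM in old KO against 149 and 151 CPM in sick KD (-0.49 ± 0.12, edgeR adjusted p = 0.0297). Ndufb4 measured 24.3 and 27.2 against 38.7 and 37.3 CPM (-0.56 ± 0.12, edgeR adjusted p = 0.0271). Ndufb11 was at 68.3 and 75.3 against 93.9 and 112 CPM, and Ndufs8 at 59.3 and 71.1 against 85.9 and 97.5 CPM, with edgeR adjusted p of 0.0378 and 0.0489. In all 4, which were named because they passed the test, the old KO mice lay below both sick mice. With any 1 mouse left out, the adjusted p was 0.0407 to 0.239 for Ndufv2, 0.0416 to 0.161 for Ndufb4, 0.0299 to 0.210 for Ndufb11 and 0.0504 to 0.311 for Ndufs8. At the other end, Ndufs1 and Ndufa9 had values above 0, of which Ndufs1 was highest with 0.17.

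All 9 complex III genes had log2 fold changes below 0, from -0.34 for Uqcrq to -0.03 for Uqcrfs1, and 0 passed. In complex IV 0 of 12 genes tested passed and the median was -0.15, which turned to 0.13 when the trends of each library in GC content, length and gene span were removed. Cox7a1 was not tested there for lack of counts. Cox6a2 had 11 and 27 counts in old KO against 5 and 5 in sick KD (1.52 ± 0.54, edgeR adjusted p = 0.0933). In complex V, Atp5l measured 52.1 and 60.3 against 73.5 and 82.7 CPM (-0.47 ± 0.13, edgeR adjusted p = 0.0453), with an adjusted p of 0.0536 to 0.292 when a mouse was left out. Atp5c1 measured 287 and 325 against 430 and 427 CPM and lay just outside the threshold (-0.48 ± 0.14, edgeR adjusted p = 0.0515). The alpha subunit Atp5a1, with 1019 and 1128 against 849 and 918 CPM, was on the other side (0.28 ± 0.15).

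**Figure D4:**
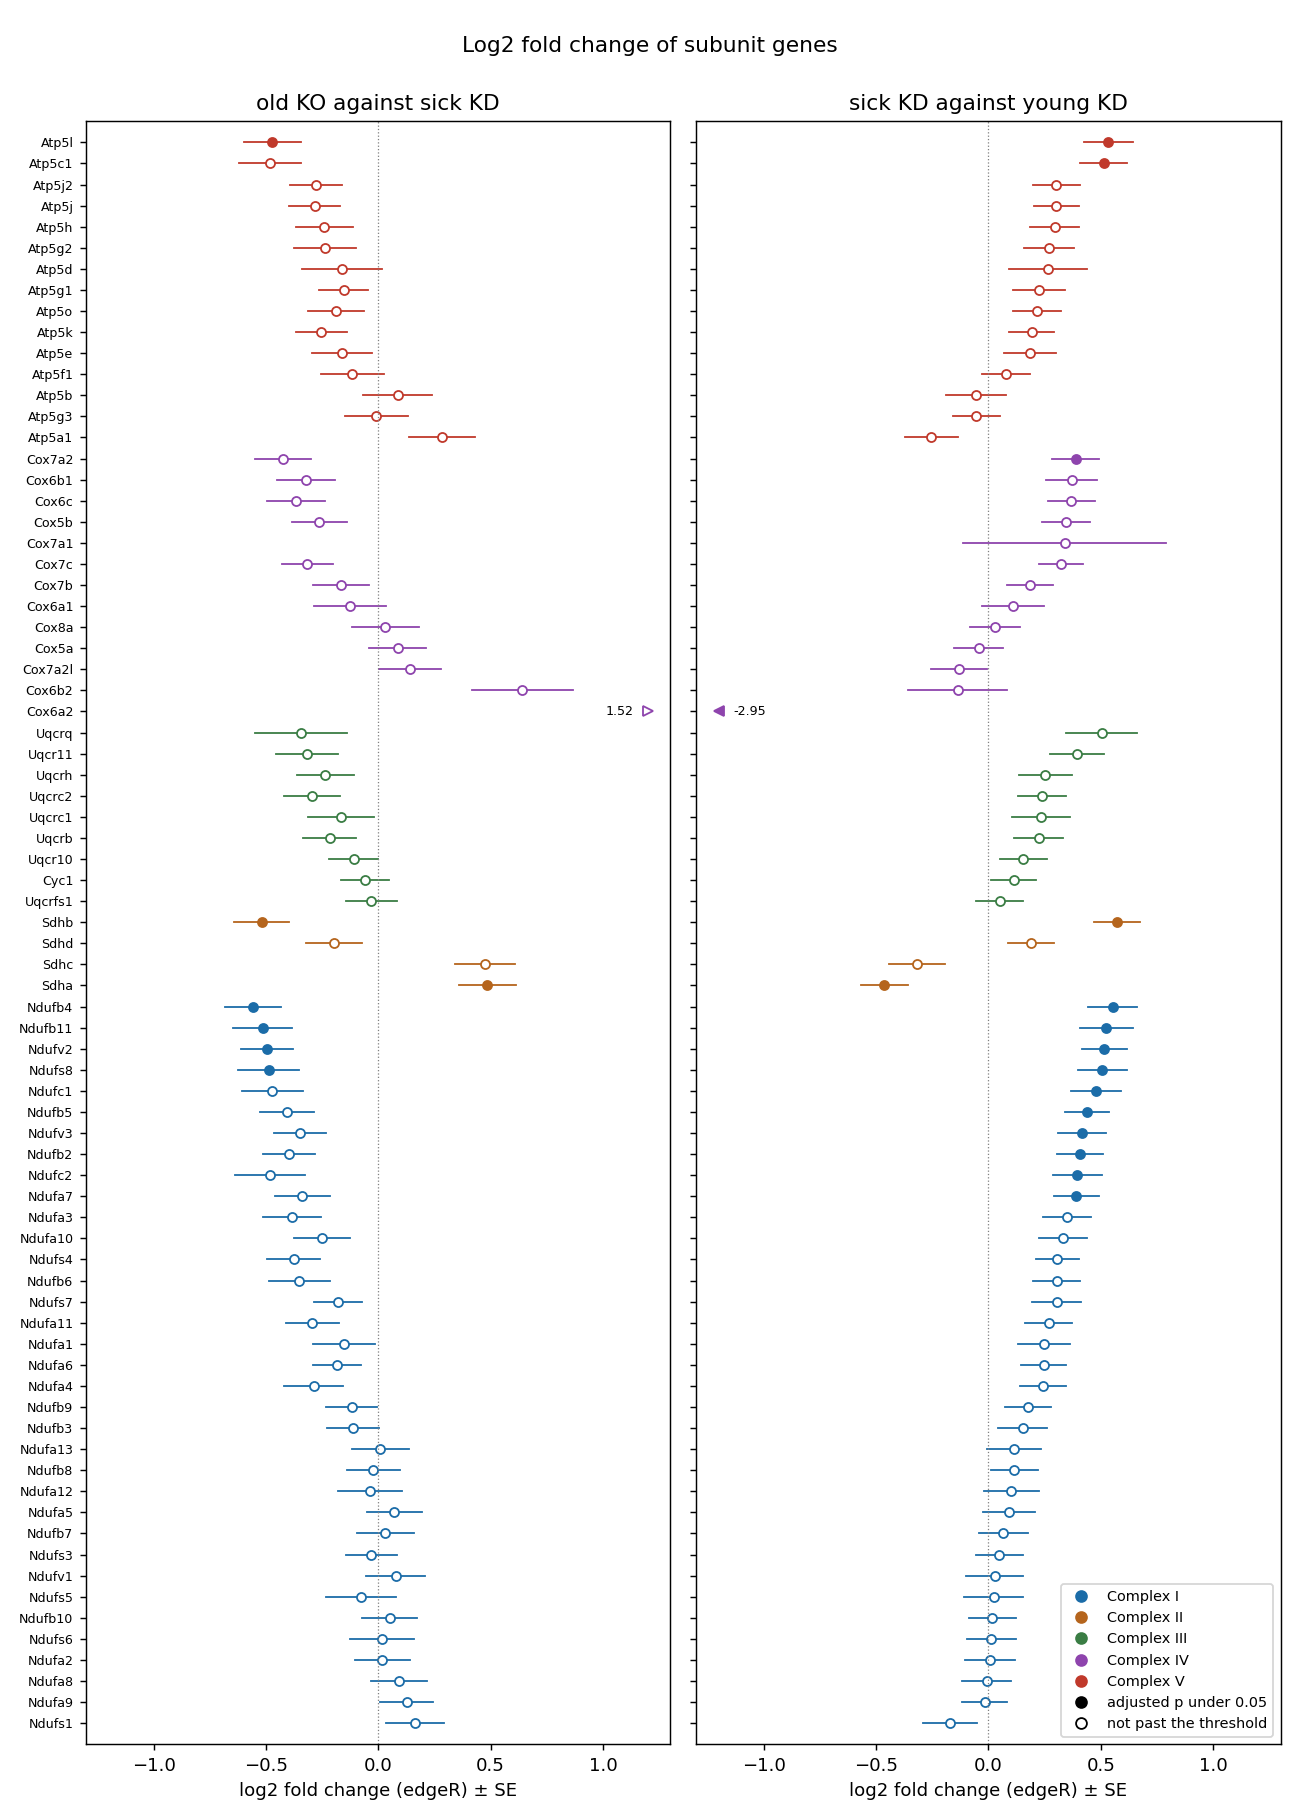
Log2 fold change ± SE of subunit genes for old KO against sick KD (left) and sick KD against young KD (right), colored by complex, with filled points past an adjusted p of 0.05 by edgeR. Values beyond 1.2 are drawn as triangles at the edge with their value, and Sdha and Sdhb stand at opposite ends of complex II in both panels, which share the sick KD mice.

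Old KO mice were compared with young KO mice to ask what age does without disease. Again 0 of 77 members passed (edgeR adjusted p under 0.05), 0 did with DESeq2, and 1, Cox6a2, had an unadjusted p under 0.05. Of 14847 genes tested, 0.323% were higher and 0.606% lower. The median was -0.02 against 0.00 for all genes, and without old KO mouse 1 it was 0.06. Cox6a2 had 53 and 39 counts in young KO and 11 and 27 in old KO (-1.12 ± 0.36, edgeR adjusted p = 0.397). Cox6b2 measured 4.68 and 4.63 CPM in young KO and 6.48 and 5.64 in old KO (0.38 ± 0.19, edgeR adjusted p = 0.667). Without these 2 and Cox7a1, log2 fold changes lay between -0.15 for Ndufc1 and 0.11 for Uqcrh, with standard errors of 0.08 to 0.18.

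The difference between KO and KD was then set against itself, in old or sick mice minus young mice, as an interaction in all 8 mice. It was below 0 for 64 of 77 members, with a median of -0.23 against 0.00 for all genes. Past the test (edgeR adjusted p under 0.05) were 4 members, all lower, while of 15102 genes 4.32% were higher and 3.11% lower. These were Ndufv2 (-0.56 ± 0.13, adjusted p = 0.0386), Sdhb (-0.59 ± 0.14, adjusted p = 0.0418), Ndufb4 (-0.61 ± 0.15, adjusted p = 0.0484) and Ndufc1 (-0.63 ± 0.16, adjusted p = 0.0488). Ndufc1, a small subunit of the membrane arm, measured 36.6 and 35.1 CPM in sick KD, 23.5 and 28.0 in old KO, 29.4 and 27.7 in young KO and 26.3 and 24.9 in young KD. Its sick KD values stood above all 6 others. Sdha had an interaction of 0.44 ± 0.13 that did not pass (adjusted p = 0.0738). The number of calls was 3 without sick KD mouse 2, 2 without old KO mouse 2 and 0 when any of the remaining 6 mice was left out. Scaled to library totals, 1 member was higher and 0 lower, with a median of -0.10 against 0.13 for all genes. With the trends of each library removed, the medians were -0.2411 and -0.0976.

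Markers of several cell types moved together with these differences. In bulk BM, fewer cells of a type and less RNA per cell cannot be told apart. The 12 erythroid markers, all detected, summed to 1012 and 1440 CPM in the sick KD mice against 3985 to 6317 in old KO and 2110 to 5549 in young mice, and 12 of 12 were called lower in sick than in young KD. The 10 B-cell markers summed to 38.3 and 97.3 CPM in sick KD, 136 to 214 in old KO and 656 to 1052 in young mice, with 10 of 10 lower in sick than in young KD. The 12 neutrophil markers summed to 8475 to 10560 CPM in sick KD against 4678 to 6089 in the other mice, with 5 of 12 higher and 1 lower than in young KD. For 8 monocyte markers the sums were 9830 to 10310 in sick KD and 6582 to 8884 elsewhere. Of these 8, 3 were called higher and 1, Cx3cr1, lower in sick than in young KD. The sums of 12 genes of dividing cells (4803 to 5669 in sick KD, 4650 to 5394 elsewhere) overlapped. The stem and progenitor list gave 446 to 512 in sick KD and 489 to 574 elsewhere, megakaryocyte genes 100 to 202 and 77.8 to 354, T and NK genes 26.0 to 27.5 and 53.3 to 70.5, eosinophil, basophil and mast cell genes 355 to 408 and 475 to 1266, and stroma genes 113 to 125 and 193 to 327. None of these lists had a defining marker at 0 in every mouse. The part of these shifts in the subunit values was not tested.

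The 13 protein genes of the mitochondrial genome, which encode the remaining subunits of complexes I, III, IV and V, summed to 8931 and 7356 CPM in sick KD, 3269 and 4986 in old KO and 5057 to 5453 in young mice. Only 7 of the 13 passed the count filter in each comparison. The sums therefore rest almost only on these and do not give the level of all 13. Why the rest had so few counts was not tested. Of the 7 tested, 6 were called lower in old KO than in sick KD and 6 higher in sick than in young KD. Mt-Nd5 of complex I measured 612 and 416 CPM in sick KD, at most 117 CPM in old KO and 139 and 181 CPM in young KD (mt-Nd5, old KO against sick KD -2.25 ± 0.22, edgeR adjusted p = 0.00406). Another complex I gene, mt-Nd2, measured 309 and 235 CPM in sick KD and 69.8 and 95.1 CPM in old KO (-1.72 ± 0.20, edgeR adjusted p = 0.00520). Both differences were larger than that of any nuclear subunit in the same comparison.

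Other genes of the pathway were read from lists, for old KO against sick KD first. Of 8 tested subunits that the symbol rule leaves out, 1 was lower, Usmg5, an ATP synthase subunit at 42.4 and 44.4 CPM in sick KD and 28.6 and 30.3 in old KO (-0.56 ± 0.12, edgeR adjusted p = 0.0220). Usmg5 and Atp5mpl were the 2 of 7 higher in sick than in young KD. Of 17 complex I assembly genes 1 was higher in old KO, Tmem186, with 28.6 and 25.2 against 17.5 and 18.9 CPM (0.57 ± 0.14, edgeR adjusted p = 0.0374). In sick against young KD 1 of them was higher, Ndufaf8, and 1 lower, Tmem186. The lists for assembly of complexes II, III and V gave 0 calls of 4, 6 and 4 genes in old KO against sick KD. In sick against young KD they gave 0, 1 (Uqcc2, higher) and 0. Of 23 complex IV assembly genes 1 was lower in old KO, Coa6, a copper-delivery factor, with 12.9 and 14.8 against 21.1 and 20.5 CPM (-0.58 ± 0.16, edgeR adjusted p = 0.0446), and in sick against young KD Coa6 and Cox16 were higher.

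Among regulators of respiratory genes, 15 were tested in old KO against sick KD, and 2 of them rose and 1 fell. Yy1 measured 85.9 and 97.2 CPM in old KO and 61.8 and 62.8 in sick KD (0.56 ± 0.12, edgeR adjusted p = 0.0215). Esrra, the gene of ERR alpha, measured 40.1 and 41.0 against 22.6 and 29.3 CPM (0.65 ± 0.15, edgeR adjusted p = 0.0302). Tfb2m, a transcription factor of the mitochondrial genome, measured 11.3 and 12.9 against 18.5 and 18.2 CPM (-0.60 ± 0.16, edgeR adjusted p = 0.0458). In sick against young KD, Tfb2m, Myc and Pprc1 were higher and Yy1, Esrra, Tfam and Ppargc1a lower, 7 of 16 tested. Young KO against young KD gave 0 calls in each of these lists.

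The members were mostly short genes, which the rule did not use. Their longest transcripts had a median of 1046 bases against 3107 for all genes tested in sick against young KD. Their GC content did not set them apart, with a median of 50.2% (range 37.0% to 63.4%) against 49.5%. Across the 77 members Spearman's rho between log2 fold change and length was -0.02, and between log2 fold change and GC content -0.11. Over 14553 genes it was -0.14 for length and -0.09 for GC content. Shorter genes thus tended slightly to be higher in sick KD. With the trends in GC content, length and gene span removed, the members' distance from all genes was 0.0894, as given above. For old KO against sick KD rho with length and GC content was 0.04 and 0.20 over 76 members, and 0.07 and 0.20 over 14368 genes. These are descriptions across genes of the same libraries, and genes are not replicates.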

How the data were processed

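Whole BM RNA of 8 mice was sequenced on an Illumina HiSeq after a TruSeq Stranded mRNA preparation. The authors aligned reads to mm10 with TopHat2 2.0.10 and counted them on Ensembl genes with HTSeq, and deposited raw counts per gene. The Ensembl release and the strand setting are not given in the sources used here. Rows that name no gene stayed out of library sizes. Samples were grouped by the labels as 4 groups of 2 mice, and p-values measure the spread between these mice.

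Tests used edgeR (version 4.0.16, under R 4.3.3, with TMM, filterByExpr, quasi-likelihood test, Benjamini-Hochberg adjusted p under 0.05) on the mice compared, and on all 8 for the interaction. SE is the absolute log2 fold change over the root of F. Genes were annotated with GENCODE M21 (GRCm38), the build of mm10, and promoters with RefSeq. The members, lists, roles and markers were chosen with earlier results of these data known. Lists covered left-out subunits, assembly factors, regulators, mitochondrially encoded genes and markers of 10 cell types or states. Named were, per complex, the 3 called members with the smallest adjusted p in each direction, the highest and lowest levels, isoform families, and up to 2 called genes per list and direction. Where no member was called, the 2 with the smallest unadjusted p were named. Other genes named (among them Sdhc, Sdhd, Atp5a1 and Atp5b) were chosen after their values were seen. Alternatives were DESeq2 1.42.0, its size factors, library totals, TMM without the 50 top genes, other count filters, a member minimum of 100 counts, offsets for GC content, length and gene span (mgcv 1.9.3), all 8 mice in a fit, and each mouse left out. The script was tested on simulated data. A member that is counted in the totals is not reported here by name.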

Additional observations from a re-analysis of the deposited data

Results flagged for a closer look

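For 4 subunits the difference between KO and KD was not the same in old or sick mice as in young mice, by the interaction test in all 8 mice (edgeR adjusted p under 0.05). The change of the log2 difference was -0.5624 for Ndufv2, -0.6054 for Ndufb4, -0.6323 for Ndufc1 and -0.5895 for Sdhb. In each the sick KD mice had the highest levels of the 4 groups. No single gene of the 4 had an adjusted p under 0.05 when old KO mouse 1, sick KD mouse 1 or any 1 of the 4 young mice was left out. With scaling to library totals none of the 4 passed, with adjusted p of 0.0597 for Ndufv2, 0.0768 for Ndufb4, 0.0681 for Ndufc1 and 0.0616 for Sdhb from edgeR.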

How the results depend on the processing

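No paired analysis was possible because the labels number mice individually and the groups share no replicate number. Leaving out a mouse leaves its group with 1 mouse, which is then assumed to vary like the other group. The range of members called was then 0 to 4 (old KO against sick KD), 1 to 20 (sick KD against young KD) and 0 to 3 (interaction), and 0 in both remaining comparisons. Medians ranged from 0.0041 to 0.0901 (young KO against young KD), -0.294 to -0.0944 (old KO against sick KD), 0.155 to 0.265 (sick KD against young KD), -0.101 to 0.0606 (old KO against young KO) and -0.326 to -0.139 (interaction). Members called in old KO against sick KD, 7 as reported, were 3 with library totals, 14 with DESeq2, 16 with a minimum of 1 count, 18 with trend offsets and 26 with all 8 mice. In sick KD against young KD, 16 as reported, they were 8 with library totals and 30 with trend offsets. In the interaction, 4 as reported, they were 2 with DESeq2 size factors, 1 with library totals, 10 with DESeq2, 13 with a minimum of 1 count and 10 with trend offsets. With library totals the medians were -0.05445, 0.0834 and -0.1001 in these 3 comparisons, while their distance from the median of all genes stayed at -0.17, 0.21 and -0.23. With trend offsets that distance shrank to -0.092, 0.0894 and -0.1435. The cause of the other shifts was not tested. Over 47 results on single genes and 587 alternatives, 433 kept their side of the threshold and 154 lost it. Among results past the threshold 0 changed direction, and for those not past it a change of direction was not counted. With 2 mice a group, small differences between groups could not be detected.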
